A study of Mus musculus with 3 samples.

Results

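Immediate early genes are the first genes that cells transcribe after a stimulus, and 10 of them were followed here across retinal cell classes and 3 ages: Fos, Fosb, Jun, Junb, Jund, Egr1, Atf3, Ier2, Zfp36 and Btg2. They were taken by symbol from the gene list of the count matrices, which each hold 32285 genes, and all 10 were detected in each library. The matrices come from droplet single-cell RNA sequencing (10x Genomics 3′ chemistry) of mouse retinas enriched for CD31, a surface protein of endothelial cells, with 1 library at each age: young (3 months), adult (12 months) and old (23 months). Per the study's methods the mice were C57BL/6JRj animals, with no transgene or treatment named, the retinas of a pair of animals were pooled at each age, and the tissue was digested enzymatically at body temperature in separate rounds, the first of which removed many neurons with the supernatant, and then passed over magnetic beads. With 1 library per age, age cannot be told apart from the library, its pool of animals and its own dissociation, so no test across ages was possible and every interval below covers counting error only.

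The members of this group need no new protein to be switched on, since kinase cascades act on factors such as SRF and CREB that already sit at their promoters, and their mRNAs are short-lived. Fos and Jun proteins pair through leucine zippers to form the AP-1 transcription factor, Egr1 and Atf3 are further transcription factors, Ier2 is a small nuclear protein, and Zfp36 and Btg2 promote the decay of mRNA. In dissociated tissue these genes are widely known as a mark of the handling itself, because the enzyme step and the shear of trituration can switch them on before RNA is captured.

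The files held 2491, 3243 and 2751 barcodes for the young, adult and old library, and 1705, 1957 and 1701 cells were kept after filters and removal of doublets (8, 17 and 12 cells). Between libraries, 4 barcode sequences were shared. The 10 genes took 0.913%, 0.805% and 0.867% of all UMIs (unique molecular identifiers, each counting 1 captured mRNA) of the kept young, adult and old cells. Clusters were built without these genes and named by marker genes, and 7 classes had at least 30 cells in each library: endothelial (446, 432 and 410 cells), pericyte (172, 130 and 101), smooth muscle (38, 38 and 37), Müller glia (181, 214 and 208), rod (166, 321 and 236), cone (70, 103 and 72) and bipolar (165, 166 and 136). All defining markers of each class had at least 1 UMI in it in each library. This is no independent check, since the same markers named the classes. The CD31 enrichment thus left many cells of other classes in the suspension, and 783 droplets that carried endothelial and pericyte markers together, as well as a cluster of 218 low-UMI cells with endothelial markers, were kept apart. Levels are UMIs of a gene per 1000000 UMIs (CPM) summed over the cells of a class in a library, with exact Poisson 95% intervals where one is drawn, and ratios of levels have exact conditional 95% intervals. A value given for 3 libraries is in the order young, adult, old.

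The DNA in front of the genes was searched for letters that stimulus-responsive factors are known to bind. A set of promoters at RefSeq start sites (GRCm38.p6, which mm10 names) gave the bases before the start site for 8 of the 10 genes. The set used here had no entry for Ier2 and Egr1. The 250 bases upstream are shown for Fos (chr12:85473640-85473889, plus strand) and Fosb (chr7:19310046-19310295, minus strand), paralogs with differing age ratios. They are also shown for Junb (chr8:84978749-84978998, minus strand) and Btg2 (chr1:134079156-134079405, minus strand). Among the genes that separated vascular or glial cells from neurons, Junb had one of the widest gaps and Btg2 the narrowest. Capitals mark TGACG on either strand, the core of the cAMP-response element that CREB and ATF proteins bind.
Fos: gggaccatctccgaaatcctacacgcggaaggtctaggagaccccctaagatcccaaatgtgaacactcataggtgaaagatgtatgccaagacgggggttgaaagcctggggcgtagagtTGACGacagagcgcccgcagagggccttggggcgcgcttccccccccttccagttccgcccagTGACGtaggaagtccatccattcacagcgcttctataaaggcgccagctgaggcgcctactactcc
Fosb: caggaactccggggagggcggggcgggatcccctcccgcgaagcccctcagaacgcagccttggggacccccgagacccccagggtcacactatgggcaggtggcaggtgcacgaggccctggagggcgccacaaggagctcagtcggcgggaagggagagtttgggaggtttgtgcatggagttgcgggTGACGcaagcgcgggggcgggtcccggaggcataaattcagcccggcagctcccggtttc
Junb: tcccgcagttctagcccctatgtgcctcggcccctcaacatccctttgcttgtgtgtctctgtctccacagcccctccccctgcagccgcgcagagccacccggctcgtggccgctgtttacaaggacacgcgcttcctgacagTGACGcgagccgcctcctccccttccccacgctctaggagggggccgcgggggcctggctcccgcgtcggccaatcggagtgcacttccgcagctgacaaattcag
Btg2: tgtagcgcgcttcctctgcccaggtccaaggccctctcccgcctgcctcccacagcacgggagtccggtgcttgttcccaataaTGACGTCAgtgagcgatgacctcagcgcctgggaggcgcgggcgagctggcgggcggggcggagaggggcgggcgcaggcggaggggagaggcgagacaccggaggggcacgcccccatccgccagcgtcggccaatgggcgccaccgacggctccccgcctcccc

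TGACG on either strand was found in 5 of the 8 promoters (Fos, Fosb, Junb, Atf3 and Btg2) and in 17.8% of all 32851 promoters of the table over the same 250 bases. Fos held it at 2 places, from -129 to -125 and from -66 to -62 counted from the base before the start. Btg2 alone of the 8 held the full palindrome TGACGTCA, from -166 to -159, which contains TGACG on both strands and was present in 1.55% of all promoters. Zfp36 alone held a CArG box, the letters bound by SRF, from -58 to -49, against 1.47% of all promoters. GCGNGGGCG, the letters bound by Egr1, was found on either strand in 3 of the 8 (Fosb, Zfp36 and Btg2) and in 4.70% of all promoters. TGANTCA, the AP-1 letters, was in none of the 8 windows and in 6.75% of all promoters. The TATAAA box was in the Fos window only, from -33 to -28, searched on the given strand, against 7.59% of all promoters. CCAAT on either strand was in 3 of the 8 (Jun, Junb and Btg2) and in 33.8% of all promoters. Jund held none of these motifs and Jun only CCAAT. The windows follow RefSeq's start sites, which need not be those of the GENCODE genes given below: the Atf3 and Zfp36 windows lie inside those genes, and the Jund window ends well before its gene. These matches describe the letters in a short window and say nothing of binding.

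Vascular and glial cells carried far more immediate early gene mRNA than neurons did in each library. The summed level of the 10 genes was highest in smooth muscle at 14675, 16169.9 and 16486 CPM, followed by Müller glia at 13600.1, 13221 and 13288 CPM and endothelial cells at 10638, 10804 and 10342 CPM. Pericytes held 10077, 7986 and 8052 CPM. The neuron classes were about an order of magnitude lower: cones held 1281, 1250.1 and 1275 CPM, rods 838, 585 and 969.5 CPM and bipolar cells 783, 728 and 667 CPM. No library of a class overlapped the libraries of its neighbour in the order smooth muscle, Müller glia, endothelial, pericyte, cone, whereas the ranges of rods and bipolar cells overlapped. The steps from smooth muscle to Müller glia and from endothelial cells to pericytes do not hold for each cluster or after a correction for free RNA. Müller glia pool 2 clusters, of which the smaller held 17549.9, 18633 and 18769 CPM, above smooth muscle, and the larger 13178, 12718 and 12579.7 CPM. Free RNA was estimated from rod markers at 36.1, 50 and 47.2% of the UMIs of Müller glia (the adult value is a set ceiling) and 11.2, 12.7 and 6.89% of those of smooth muscle, and with it subtracted Müller glia lay higher, at 20732, 25614 and 24224 CPM against 16405, 18401 and 17628 CPM. Endothelial cells and pericytes then overlapped, at 11092, 11461 and 10978 CPM and 11289, 9918 and 8520.2 CPM, with young pericytes above young endothelial cells. From the same rod markers, the free RNA share was 4.48% in young endothelial cells but 36.1% in young Müller glia. The subtracted levels are therefore uncertain. Without subtraction, a smaller endothelial cluster, described below, held 9949.5 CPM in the young library, just under young pericytes. The lowest vascular or glial value, that of adult pericytes, was 6.23-fold (interval 5.73 to 6.79) the highest neuron value, that of young cones. The mean log2 ratio of endothelial cells over rods was 3.76 ± 0.40 (SD, n = 3 libraries), with 3.67, 4.21 and 3.42 in the young, adult and old library.

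For 9 of the 10 genes, each of the 12 vascular or glial values lay above each of the 9 neuron values, and no gene showed the reverse. The same separation held for 5.78% of the 13364 genes measured across these classes, and the reverse for 5.06%. Atf3 was the exception, because pericytes held as little as 21.4 CPM in the adult library while old rods held 29.5 CPM. The classes were named from clusters of the same cells, so these class differences are a description and were not tested.

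**Figure D1:**
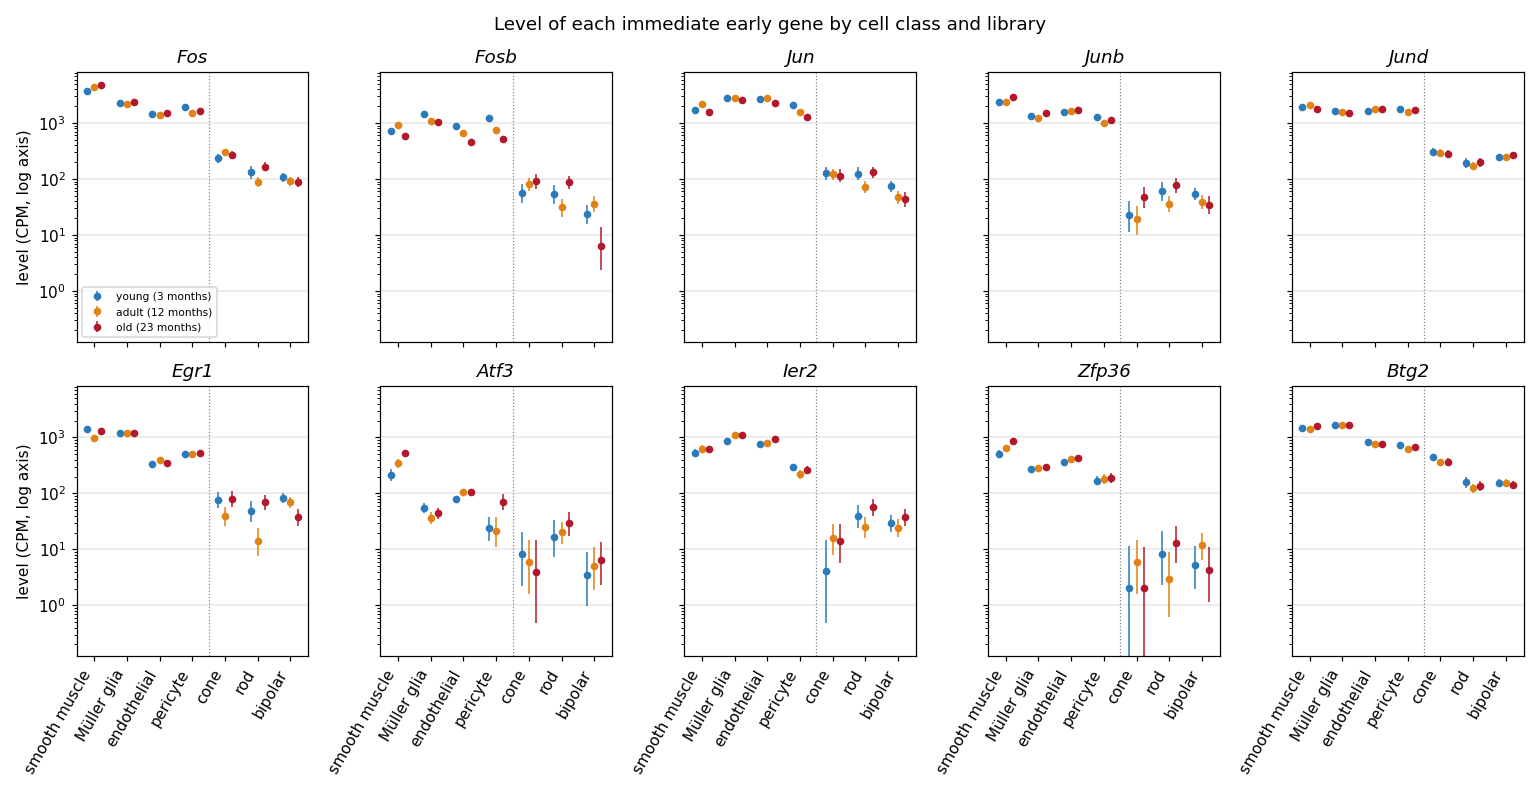
Level of each gene in CPM on a log axis (1 panel per gene) in 7 cell classes; each point is 1 library (blue young, orange adult, red old) with its 95% counting interval, and the dotted line separates vascular and glial classes from neurons. All points left of the line lie above all points right of it for every gene except Atf3, and the smallest of these gaps is that of Btg2, at 1.41-fold.

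RNA set free from broken cells can place UMIs in any droplet, so the neuron values were set beside markers that neurons should lack. In rods, the summed endothelial markers stood at 0.286%, 0.237% and 0.646% of their endothelial level, and the 10 genes at 7.88%, 5.41% and 9.37% of theirs. Cones held 0.359%, 0.158% and 0.210% of the endothelial marker level against 12.0%, 11.6% and 12.3% of the members' level. In bipolar cells the shares were 1.01%, 0.853% and 0.839% for the markers and 7.36%, 6.74% and 6.45% for the members. Barcodes with under 500 detected genes, in which free RNA weighs most, held 965, 827 and 1055 CPM of the 10 genes, above the level in rods of the same library. These barcodes also hold broken cells. In pericytes the endothelial markers stood at 6.33%, 6.87% and 7.78% and the members at 94.7%, 73.9% and 77.9% of the endothelial level. The summed level in rods and in bipolar cells was below that of the low-gene barcodes in each library, with the interval in old rods (893 to 1051 CPM) ending just under it. From the endothelial markers, free RNA was estimated at 14.9, 10.1 and 26.8% of the UMIs of young, adult and old rods, 18.7, 6.71 and 8.71% of those of cones and 50, 36.2 and 34.7% of those of bipolar cells, where the young value is the ceiling. Cones, unlike rods and bipolar cells, lay above the low-gene barcodes in each library. With free RNA subtracted, the 10 genes stood at 816, 558 and 938 CPM in rods, 1362, 1281 and 1297 CPM in cones and 784, 717 and 558 CPM in bipolar cells, so the largest shift was in old bipolar cells.

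Within the Fos family, Fos (ENSMUSG00000021250, chr12:85473890-85477273, here and below the GENCODE gene on GRCm38) was highest in smooth muscle. Its level there was 3778, 4436 and 4726 CPM, above all other classes without overlap. Müller glia followed at 2293, 2196 and 2360.0 CPM, pericytes at 1922, 1541 and 1661 CPM and endothelial cells at 1429, 1403 and 1539 CPM, again without overlap between neighbours. Among neurons, cones held 236, 306 and 269 CPM, more than rods (88.6 to 167 CPM) and bipolar cells (88.7 to 108 CPM), whose ranges overlapped each other. Fosb (ENSMUSG00000003545, chr7:19302696-19310051), which encodes a close relative of Fos, had another order. Müller glia were highest at 1456, 1077 and 1056 CPM, overlapping with pericytes through the young pericyte value alone. Pericytes (1225, 748 and 519 CPM), smooth muscle (718, 912 and 579 CPM) and endothelial cells (891, 653 and 454 CPM) overlapped one another. Neurons held 6.34 to 90.5 CPM, with old bipolar cells lowest on 6 UMIs.

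The Jun family split by cell class. Jun (ENSMUSG00000052684, chr4:95049034-95052222), the main partner of Fos in AP-1, was highest in Müller glia (2844, 2762 and 2546 CPM) and endothelial cells (2693, 2826 and 2245 CPM), whose ranges overlapped. Smooth muscle (1739, 2229 and 1585 CPM) and pericytes (2100.1, 1546 and 1291 CPM) came next and also overlapped, and neurons stayed between 43.3 and 131 CPM. Junb (ENSMUSG00000052837, chr8:84974484-84978718), which activates more weakly than Jun and can oppose it, was highest in smooth muscle (2396, 2411 and 2932 CPM) and next in endothelial cells (1584, 1630.3 and 1730.5 CPM), with no overlap between them. Together with that of Zfp36 its separation from neurons was the widest of the 10 genes, the lowest vascular or glial value being 12.9-fold the highest neuron value. Jund (ENSMUSG00000071076, chr8:70698949-70700616), the family member expressed most steadily in resting cells, varied least among the vascular and glial classes, from 1498 CPM in old Müller glia to 2134 CPM in adult smooth muscle. Neurons held 171 to 307 CPM of it. Its highest class mean was 10.3-fold its lowest, the narrowest span of the 10 genes.

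Egr1, a zinc-finger factor induced by growth factors and mechanical strain, was high in smooth muscle (1398, 991 and 1300.5 CPM) and Müller glia (1222, 1218 and 1179 CPM), whose ranges overlapped. Pericytes held 506, 505 and 537 CPM, below both, and endothelial cells 332, 402 and 347 CPM, below pericytes, with no overlap. Atf3 (ENSMUSG00000026628, chr1:191170296-191218039), a stress-induced relative of CREB that mostly represses, was concentrated in smooth muscle. The level there was 218, 349.7 and 521 CPM, against 79.5, 105 and 104 CPM in endothelial cells, and the ranges did not overlap. Müller glia (55.6, 37.0 and 44.0 CPM) and pericytes (24.0, 21.4 and 71.2 CPM) overlapped with each other. Ier2 (ENSMUSG00000053560, chr8:84661331-84662852) was led by Müller glia (856, 1100.1 and 1103 CPM) and endothelial cells (773, 808 and 925 CPM), with overlapping ranges. Pericytes were the lowest vascular class at 297, 221 and 262 CPM, below the 533, 629 and 621 CPM of smooth muscle.

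The RNA decay genes lay at the extremes of the contrast with neurons. Zfp36 (ENSMUSG00000044786, chr7:28376784-28380253), or tristetraprolin, which binds AU-rich elements and shortens the life of inflammatory mRNAs, was highest in smooth muscle at 504, 645 and 852 CPM. Endothelial cells held 361, 416 and 425 CPM, Müller glia 269, 288 and 297 CPM and pericytes 169, 180.3 and 189 CPM, and none of these neighbours overlapped. Neurons held at most 13.1 CPM, and cones as little as 1 to 4 UMIs per library. Btg2 (ENSMUSG00000020423, chr1:134075170-134079120), an antiproliferative partner of the CCR4-NOT deadenylase, was highest in Müller glia (1637, 1692 and 1691 CPM) and next in smooth muscle (1453, 1432 and 1615 CPM). It was also the member with the highest cone level relative to endothelial cells, with 441, 358 and 372 CPM in cones and 834, 772 and 762 CPM in endothelial cells. Rods and bipolar cells held 123 to 158 CPM and 142 to 155 CPM and overlapped each other.

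Between pairs of vascular and glial classes the genes went in both directions. Endothelial cells lay above pericytes in each library for 6 genes (Jun, Junb, Atf3, Ier2, Zfp36 and Btg2) and below them for Fos and Egr1, against 26.6% and 26.3% of genes. Smooth muscle lay above endothelial cells for 6 genes (Fos, Junb, Egr1, Atf3, Zfp36 and Btg2; all genes 19%) and below them for Jun and Ier2 (all genes 34.5%). Smooth muscle lay above pericytes, the other mural cell, for 7 genes and below for none, where 14% and 27% of genes did so. Müller glia lay above endothelial cells for Fos, Fosb, Egr1 and Btg2 and below them for Junb, Jund, Atf3 and Zfp36, against 36.8% and 35.1% of genes, so these counts are close to what genes at large show. Müller glia lay above pericytes for 6 genes (Fos, Jun, Egr1, Ier2, Zfp36 and Btg2) and below for none, against 31.6% and 30% of genes. Smooth muscle lay above Müller glia for 5 genes (Fos, Junb, Jund, Atf3 and Zfp36) and below for 4 (Fosb, Jun, Ier2 and Btg2), against 22% and 38.2%.

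Endothelial cells lay above each neuron class for all 10 genes, a direction that 42.5% of genes took against rods, 38% against cones and 36.2% against bipolar cells. The reverse, taken by no member, was found for 28.6%, 34.2% and 40% of genes. Among neurons, cones lay above rods for Fos, Jund and Btg2 and below them for Atf3 and Ier2 of 9 genes measured (all genes 28.1% and 15.2%). Cones lay above bipolar cells for 5 of 8 genes (Fos, Fosb, Jun, Jund and Btg2) and below for Ier2, against 23% and 30.2% of genes.

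Nearly all vascular and glial cells held UMIs of these genes, although free RNA can place some of them. Cells were thinned to 2000 UMIs each so that depth did not set the number of genes seen, which left out 61, 105 and 94 rods and 15, 27 and 5 endothelial cells with fewer UMIs. Of 181, 214 and 208 Müller glia, 171, 198 and 168 remained, and of 172, 130 and 101 pericytes, 154, 109 and 85. The median endothelial cell then held 20, 19 and 18 UMIs of the 10 genes and detected 7, 7 and 6 of them. In smooth muscle the medians were 27, 33.5 and 36 UMIs and 8, 7 and 8 genes, and no smooth muscle cell lacked all 10. Only 2, 6 and 7 of the 431, 405 and 405 thinned endothelial cells had none of the 10 genes. Of the 154, 109 and 85 thinned pericytes, 2, 5 and 2 had none, and 115, 66 and 55 had at least 5 of the genes. Rods had a median of 1 UMI, and 33, 100 and 45 of 105, 216 and 142 had none.

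**Figure D2:**
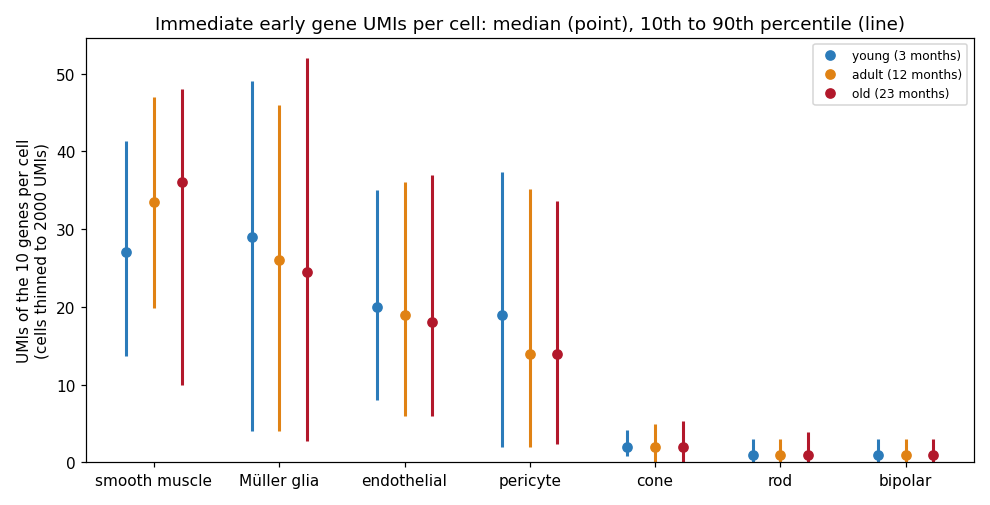
UMIs of the 10 genes per cell after each cell was thinned to 2000 UMIs, by class; points are medians, lines run from the 10th to the 90th percentile of cells, and colours are the 3 libraries. The medians of vascular and glial classes lie between 14 and 36, those of neurons at 1 or 2, and the lines of Müller glia and pericytes reach down to between 2 and 4.

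Among the vascular and glial classes, the variance of UMIs per cell over their mean, a measure that tends to grow with the mean, was highest in Müller glia and pericytes. It was 10.7, 10.5 and 13.5 in Müller glia and 9.38, 11 and 11.7 in pericytes, against 6.04, 6.74 and 7.99 in endothelial cells and 5.91, 5.19 and 6.8 in smooth muscle. At the 10th percentile a Müller cell held 4, 4 and 2.7 UMIs and a pericyte 2, 2 and 2.4. Both classes thus held some cells at the level of neurons beside many cells far above it. The share of thinned cells with a Jun UMI was 95.1%, 91.4% and 91.6% in endothelial cells and 14.3%, 9.26% and 16.9% in rods, where free RNA can place UMIs (before thinning 96.6%, 92.8% and 95.9% in endothelial cells and 21.7%, 15.6% and 16.1% in rods, at median depths of 5648, 5998 and 7522 UMIs, and 2287, 2423 and 2153). For Atf3 the shares were 10.2%, 14.3% and 15.1% in endothelial cells and 2.86%, 3.24% and 6.34% in rods. Their Clopper-Pearson intervals overlapped in the young library (7.52% to 13.5% and 0.593% to 8.12%) but not in the adult one (11.1% to 18.1% and 1.31% to 6.56%). In the old library they adjoined without overlap (11.7% to 18.9% and 2.94% to 11.7%).

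Some pairs of members rose and fell together from cell to cell, and others barely did. Across thinned Müller cells of a library, Pearson's r between Fos and Jun was 0.63 to 0.67, and that between Jun and Btg2 0.57 to 0.69. In pericytes Fos and Junb gave 0.56 to 0.63, and in endothelial cells the closest pair, Jun and Jund, gave 0.34 to 0.44. Jund and Egr1 in Müller glia gave 0.02 to 0.23, and Jund and Zfp36 in pericytes -0.04 to 0.18. The Müller values pool the clusters described next, which differ in several of these genes. These correlations are across cells of 1 library, which share depth and handling, and are given as a description. The genes outside the group that ran most like the members' sum across endothelial cells were Klf2 (r = 0.32, 0.50 and 0.44) and Klf4 (0.27, 0.38 and 0.28), flow-responsive transcription factors, and Dusp1 (0.26, 0.32 and 0.29), a phosphatase that switches MAP kinases off. Id1, Apold1, Ier3, Rhob, Socs3, Klf6 and Mcl1 completed the 10 with the highest lowest r of 2743 genes, whose median was -0.04. In Müller glia the list was led by Ccn1 (0.46, 0.53 and 0.58), a matricellular protein, with Dusp1 (0.46, 0.39 and 0.52) and Zfp36l1 (0.36, 0.38 and 0.56), the paralog of Zfp36, next. Malat1, a nuclear long noncoding RNA, was among the Müller 10 (0.29, 0.41 and 0.40).

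The members were not all alike in low-UMI cells. Müller glia fell into a main cluster (148, 180 and 160 cells) and a smaller one (33, 34 and 48 cells) with a median of 4313, 4482 and 2665 UMIs against 10444, 10091 and 9001, and with Malat1 at 159114, 158053 and 164870.0 CPM against 73285, 74238 and 70975. In the smaller cluster Egr1 stood at 3444, 3448 and 3559 CPM, compared with 985, 1011 and 871 in the main one. Fosb stood at 3099, 2613 and 2493 CPM, compared with 1281, 934 and 870.0. Jund went the other way, with 1246, 1209.9 and 987 CPM against 1690.4, 1630.4 and 1564, and so did Junb, with 1002, 1143 and 1294 against 1355, 1266 and 1542. The ranges of the clusters did not overlap for any of these genes except Junb, where the old small cluster (1294 CPM) lay just above the adult main cluster (1266 CPM).

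The cluster of low-UMI cells with endothelial markers differed from the main endothelial cluster in some of the same genes. Its median depth was 2326, 1719 and 2296 UMIs against 5469, 5915 and 7126, and its Malat1 level 42826, 37320.3 and 35671 CPM against 28459.7, 29311 and 18576. Egr1 was 1202, 601 and 798 CPM there and 322, 383 and 309.8 CPM in the main cluster, and Fosb 1668, 1040.1 and 1072 against 933, 679 and 474. Junb (762, 839.8 and 844 against 1565, 1625 and 1690.5 CPM) and Ier2 (397, 478 and 415 against 778, 806 and 908) were lower. Jun did not follow the Müller clusters: it was lower here in each library, at 2493, 2151 and 2044 CPM against 2802, 2917 and 2342, and higher in the smaller Müller cluster, at 3419, 3823 and 3665 CPM against 2783, 2664 and 2402. The summed level here was also below that of the main cluster in each library, at 10336, 8321 and 9143 CPM against 10748, 10894 and 10245, although young low-UMI cells lay just above old main-cluster cells. A second endothelial cluster led by arterial genes (Gkn3, Sema3g and Bmx) had Atf3 at 176, 126 and 155 CPM against 64.2, 101 and 90.4, and Jun at 2009, 2314 and 1895 against 2802, 2917 and 2342, both without overlap. Depth and the Malat1 share moved with the cluster, and their part in these differences was not tested.

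Across ages, the summed level of the 10 genes in endothelial cells was nearly level. The adult library stood at 1.02 (interval 1.00 to 1.03) of the young and the old library at 0.972 (interval 0.958 to 0.986). In endothelial cells none of the 10 genes was 1.5-fold higher in the old than in the young library, and 1, Fosb, was 1.5-fold lower. Of 9000 endothelial genes 4.90% and 3.14% passed these limits. The median log2 ratio was 0.12 for the 10 genes and 0.02 for all genes. Fosb was 891, 653 and 454 CPM, so that the old over young ratio was 0.509 (interval 0.479 to 0.541) and the adult over young ratio 0.733 (interval 0.693 to 0.775). Under each alternative tried the old over young ratio of Fosb stayed within 0.494 to 0.543. Its paralog Fos did not follow, with 1429, 1403 and 1539 CPM and a ratio of 1.08 (interval 1.04 to 1.12). Jun was 0.834 (interval 0.809 to 0.859), while Atf3 (1.31, interval 1.12 to 1.54), Ier2 (1.20, interval 1.14 to 1.26) and Zfp36 (1.18, interval 1.09 to 1.27) were higher. The class was made up differently at each age, since the cluster led by arterial genes supplied 46 of its 446 cells in the young library, 57 of 432 in the adult library and 80 of 410 in the old library. Within that cluster Atf3 was 176, 126 and 155 CPM, lower in the old than in the young library, and in the main cluster 64.2, 101 and 90.4 CPM. Fosb was lower in the old than in the young library in both, at 629.8, 508 and 379 CPM and 933, 679 and 474 CPM. Adult over young, none of the 10 passed 1.5-fold in either direction (all genes 2.69% higher and 1.46% lower).

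**Figure D3:**
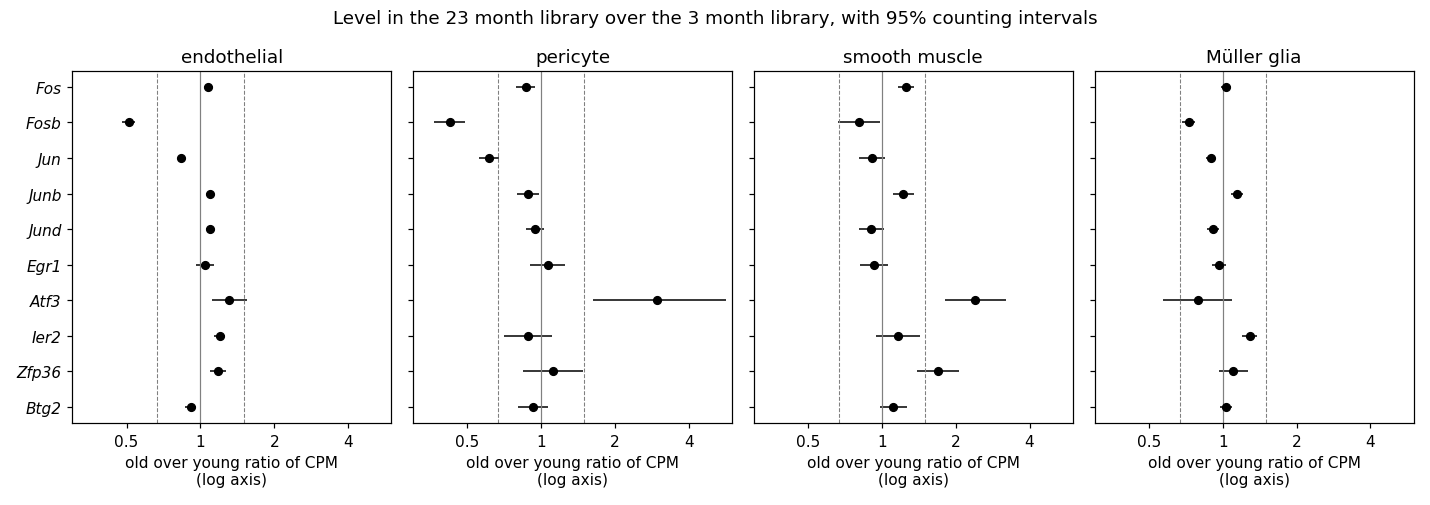
Ratio of the level in the old library (23 months) to that in the young library (3 months) for each gene in 4 classes, on a log axis, with 95% counting intervals; dashed lines mark 1.5-fold in either direction. Fosb is the leftmost gene in each panel, at 0.509 in endothelial cells, 0.423 in pericytes, 0.806 in smooth muscle and 0.725 in Müller glia, and Atf3 lies past the right dashed line in pericytes and smooth muscle.

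Fosb was lower in old than in young libraries in the other vascular and glial classes too. In pericytes it went from 1225 through 748 to 519 CPM, a ratio of 0.423 (interval 0.367 to 0.487). The mixed endothelial and pericyte droplets gave 0.553 (interval 0.522 to 0.586) and the low-UMI cells with endothelial markers 0.643 (interval 0.537 to 0.769). Müller glia gave 0.725 (interval 0.681 to 0.772), with the adult level (1077 CPM) already near the old one (1056 CPM). Smooth muscle gave 0.806 (interval 0.664 to 0.979), although its adult level (912 CPM) was above the young one (718 CPM). Set against Fos in the same cells, there were 62.4, 46.6 and 29.5 Fosb UMIs per 100 Fos UMIs in endothelial cells, 63.7, 48.6 and 31.2 in pericytes, 19.0, 20.6 and 12.3 in smooth muscle and 63.5, 49.0 and 44.7 in Müller glia.

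Malat1 moved with Fosb in part. Its level was 29281, 29528 and 19355 CPM in endothelial cells, 56789, 56891 and 31101 CPM in pericytes, and 44412, 47388 and 24982 CPM in smooth muscle, each lower in the old library alone, whereas Müller glia held 81564, 81367 and 81712 CPM. Within a library, cells were split by their Malat1 UMIs into 3 bins of equal size, and the highest bin had more Fosb than the lowest. From the lowest to the highest bin, young endothelial cells held 559, 1052 and 1185 CPM, and old ones 211, 570.4 and 600.0. The old middle bin and the young lowest bin had Malat1 at 19533 and 16385 CPM and nearly the same Fosb, 570.4 and 559 CPM. At higher Malat1 they parted, with 600.0 CPM of Fosb in the old highest bin (Malat1 36670.4) and 1052 CPM in the young middle bin (Malat1 28833). The other classes did not repeat the endothelial match. The old middle bin of pericytes (Malat1 27196) held 625 CPM of Fosb, against 894 CPM in the young lowest bin (Malat1 29240.4) and 297 CPM in the adult lowest bin (Malat1 26703). In the middle bins of Müller glia, Fosb was 1447, 1000.0 and 1125 CPM at Malat1 levels of 81359.6, 78811 and 83982 CPM. In these bins the old cells lay below the young and above the adult ones. Egr1 too was higher in the highest than in the lowest bin, except in old pericytes (518 against 586 CPM). In young endothelial cells it was 402 against 215 CPM. Across ages, endothelial Egr1 was lowest in the young library, at 332 CPM. The part of Malat1 in the Fosb ratio was not tested.

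**Figure D4:**
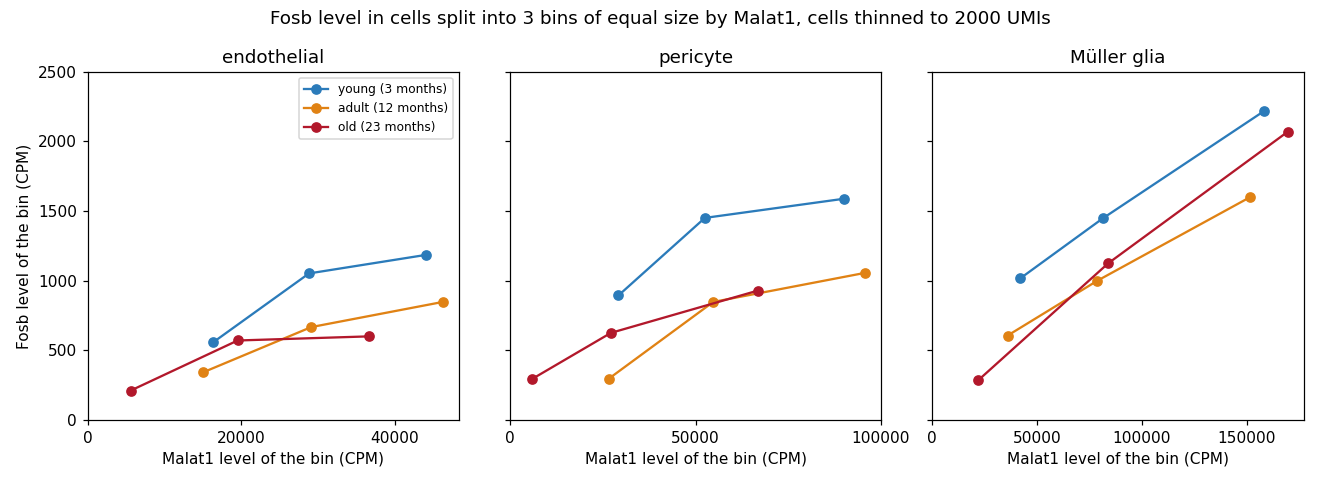
Fosb level (CPM) against Malat1 level (CPM) in cells thinned to 2000 UMIs and split into 3 bins of equal size by their Malat1 UMIs, for endothelial cells, pericytes and Müller glia; colours are libraries and lines join the bins of a library. Fosb is higher in the highest than in the lowest bin in each line, and the young line lies above the adult one in each panel, while the old line crosses the adult one in each.

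In pericytes the summed level was lower in both later libraries, at 0.792 (interval 0.763 to 0.823) in the adult and 0.799 (interval 0.768 to 0.831) in the old one. Jun was lower together with Fosb, at 2100.1, 1546 and 1291 CPM and a ratio of 0.615 (interval 0.559 to 0.675), while Atf3 was higher, at 24.0, 21.4 and 71.2 CPM and 2.97 (interval 1.62 to 5.65). Past 1.5-fold, 1 gene was higher and 2 were lower of 10 (all pericyte genes 7.30% and 4.33%), and the median log2 ratio was -0.15 against 0.07. The Atf3 value rests on 17 young and 35 old UMIs and was 1.81 after thinning and 5.27 with stricter cell filters. Jun in pericytes was 0.755 when cells were assigned by their own marker genes and not by cluster, which is short of 1.5-fold.

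Smooth muscle had the opposite balance, with a summed ratio of 1.12 (interval 1.08 to 1.17) and Atf3 and Zfp36 past 1.5-fold higher (2 of 10, with none lower, against 9.06% and 4.91% of 1975 genes). Atf3 was 218, 349.7 and 521 CPM, a ratio of 2.39 (interval 1.80 to 3.21). Zfp36 was 504, 645 and 852 CPM, a ratio of 1.69 (interval 1.39 to 2.07). Fos (1.25, interval 1.16 to 1.35) and Junb (1.22, interval 1.11 to 1.35) were higher by less. The Malat1 level given above was lower in the same old library, and its part in these ratios was not tested. Each smooth muscle value rests on 37 or 38 cells, and both ratios past 1.5-fold stayed past it under the 7 alternatives that left enough cells. In Müller glia no gene passed 1.5-fold (all genes 5.15% higher and 3.43% lower), and the summed ratio was 0.977 (interval 0.959 to 0.996). The largest Müller differences beside Fosb were Ier2 at 1.29 (interval 1.20 to 1.38) and Atf3 at 0.792 (interval 0.571 to 1.09), the latter on 92 and 69 UMIs.

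Neuron ratios rest on few UMIs and shifted with the processing. In rods, 8 of the 10 genes had the 50 UMIs needed over both libraries, and only Fosb passed 1.5-fold (26 young and 53 old UMIs, 1.60, interval 0.985 to 2.67; all genes 5.52% higher and 5.26% lower). In cones it was also Fosb that passed (28 and 45 UMIs, 1.59, interval 0.970 to 2.64; all genes 5.67% and 4.33%) of 6 genes measured. Both intervals include 1, the rod ratio was 0.678 with stricter cell filters, and the cone ratio was 0.990 with doublets kept. The adult rods were lowest for 9 of the 10 genes, all but Atf3, with a summed old over adult ratio of 1.66 (interval 1.48 to 1.86). Malat1 in rods was also lowest in the adult library, at 22414, 13866 and 24740.1 CPM, and its part in the rod ratios was not tested. In bipolar cells Egr1 (0.461, interval 0.305 to 0.684), Jun (0.588, interval 0.394 to 0.865) and Junb (0.634, interval 0.402 to 0.982) were past 1.5-fold lower and none higher of 7 genes (all genes 5.22% and 3.90%). With cells that carry markers of another class left out, Jun and Junb turned to 1.17 and 1.12, and Egr1 came to 0.777.

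The adult library was set beside the others in the same way, although these comparisons share their libraries with the one of old and young. In pericytes Fosb was already lower in the adult library (0.611, interval 0.542 to 0.687), the only 1 of 9 genes past 1.5-fold (all genes 5.71% higher and 3.42% lower). In smooth muscle Atf3 alone of 10 passed, at 1.61 (interval 1.18 to 2.20) (all genes 7.77% higher and 3.51% lower), and no Müller gene did (all genes 4.24% higher and 3.45% lower). From adult to old, Fosb in smooth muscle was 0.635 (interval 0.529 to 0.760), the only member past 1.5-fold in that class (all genes 5.87% higher and 5.48% lower). None of 10 passed in endothelial cells (all genes 3.13% higher and 2.99% lower) or Müller glia (3.69% higher and 3.16% lower), and none of the 9 measured in pericytes (5.66% higher and 4.62% lower). Atf3, the pericyte gene left out of both comparisons with the adult library, had 12 adult and 35 old UMIs, fewer than the 50 required, at 21.4 and 71.2 CPM.

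Adult rods were the low library for these genes. Fosb (0.576, interval 0.331 to 1.01), Jun (0.580, interval 0.406 to 0.830) and Junb (0.600, interval 0.357 to 1.01) of 6 genes were past 1.5-fold lower in the adult than in the young library (all genes 5.27% higher and 5.96% lower). From adult to old, 6 of 8 (Fos, Fosb, Jun, Junb, Egr1 and Ier2) were past 1.5-fold higher (all genes 6.03% higher and 4.59% lower). The members' level in barcodes under 500 genes was also lowest in the adult library, as was Malat1 in rods. With free RNA subtracted as above, adult rods remained the lowest of the 3 libraries. In cones, Egr1 was 0.511 (interval 0.300 to 0.859) adult over young (all genes 6% higher and 2.43% lower) and 2.04 (interval 1.22 to 3.45) old over adult (all genes 3.66% higher and 6.46% lower). In bipolar cells, Fosb (1.51, interval 0.915 to 2.55) and Jun (0.653, interval 0.458 to 0.926) passed adult over young in opposite directions (all genes 3.35% higher and 3% lower), and Ier2 (1.55, interval 0.927 to 2.63) and Egr1 (0.550, interval 0.361 to 0.823) did so old over adult (all genes 3.19% higher and 5.20% lower). Jun in bipolar cells, adult over young, turned to between 1.08 and 2.44 under 4 alternatives, and Fosb in rods to 1.16 under 1.

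Other genes of the pathway showed the class pattern in part. Of 14 other AP-1 and CREB family factors measured, 4 (Fosl2, Maff, Mafk and Atf5) lay above neurons in all vascular and glial classes, which 5.78% of all genes did, as did 13 of 30 further immediate early genes, among them Klf4, Klf6, Ier5, Cebpb, Ccn1 and Gadd45b. Of 21 feedback and RNA decay genes 4 did so (Dusp1, Dusp6, Zfp36l1 and Btg3) and 2 showed the reverse, and of 19 upstream kinases and SRF complex genes 3 did (Mrtfb, Mapk3 and Mapkapk2). Heat shock genes, another stress programme of dissociated cells, gave 3 of 14 above and 1 below. Dusp1 was 412, 439.7 and 545 CPM in endothelial cells and 16.7, 19.1 and 24.6 CPM in rods. Hspa1a was 472, 447 and 280.2 CPM in endothelial cells, 22.9, 14.4 and 9.57 CPM in Müller glia and 100.1, 88.6 and 103 CPM in rods, so Müller glia, with a high summed level of the 10 genes, lay below rods for this gene. Klf2, at 2340.1, 2467 and 2608 CPM in endothelial cells and 9.66, 12.3 and 12.1 CPM in Müller glia, differed far more between these classes than any of the 10 genes did.

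In endothelial cells, 1 of 12 AP-1 and CREB family factors was 1.5-fold higher in the old library (Mafk, 1.88, interval 1.37 to 2.60) and none lower, with a median log2 ratio of 0.09. Of all endothelial genes 4.90% were higher and 3.14% lower by this limit, so that 1 gene of a list this short is near the background. Of 27 further immediate early genes, Gadd45g (1.92, interval 1.68 to 2.19), Cebpd (1.65, interval 1.37 to 1.98) and Socs3 (1.54, interval 1.34 to 1.78) were higher and Egr3 (0.504, interval 0.360 to 0.700) was lower, with a median of 0.12. Gadd45g and Cebpd are stress and cytokine response genes, Socs3 is an inhibitor of JAK-STAT signalling, and Egr3 is a relative of Egr1. Feedback and decay genes gave 2 higher of 18, the phosphatases Dusp2 (1.60, interval 0.901 to 2.92) and Dusp8 (1.56, interval 1.10 to 2.23). Of 18 upstream genes, Srf was 2.14 (interval 1.19 to 4.02) on 17 and 41 UMIs and Elk1 0.644 (interval 0.385 to 1.07) on 40 and 29. Of 14 heat shock genes, Hspa1b (0.305, interval 0.269 to 0.345) and Hspa1a (0.594, interval 0.548 to 0.643) were lower, and since these copies are near-identical their split between the 2 genes is uncertain. The median over all 9000 endothelial genes was 0.02.

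The other classes with many UMIs showed further members of the lists. In smooth muscle, 6 of 16 further immediate early genes (Nr4a1, Klf2, Klf6, Socs3, Ccn1 and Ccn2) were past 1.5-fold higher in the old library and none lower, where 9.06% and 4.91% of all genes were, with a median log2 ratio of 0.47 against 0.08 for all genes. In pericytes 3 of 16 were higher (Ccn1, Ccn2 and Bhlhe40) and none lower (all genes 7.30% and 4.33%), with a median of 0.28 against 0.07. Müller glia gave 3 higher (Socs3, Cebpd and Irf1) and 1 lower (Arc) of 23 (all genes 5.15% and 3.43%), with a median of -0.01 against 0.03. Heat shock genes were lower in old pericytes for 3 of 11 (Hspa1a, Hspa1b and Dnajb4; all genes 4.33%), and none of 10 passed in smooth muscle. In pericytes, 3 of 7 other AP-1 and CREB family factors (Mafg, Mafk and Atf5) were higher and none lower (all genes 7.30% and 4.33%), with a median of 0.20. Feedback and RNA decay genes were higher for 1 of 11 in pericytes (all genes 7.30%, median 0.36). In smooth muscle 2 of 7 were (all genes 9.06%, median 0.35), with none lower in either class. Set beside these, the 10 members had medians of 0.19 in smooth muscle and -0.15 in pericytes.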

How the data were processed

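Per the labels, the authors made 10x Genomics 3′ libraries. The submitters' processing notes name Cell Ranger 6.1.2 and mm10. The authors deposited whole-number UMI counts per gene and barcode, not normalized. Cells with 500 to 6000 genes and 1 to 20% mitochondrial counts were kept here, doublets were removed with Scrublet (scanpy 1.11.5), and libraries were integrated and clustered with Seurat 5.3.0 on 2000 features (30 components, resolution 0.5), leaving out the members and the other listed genes. Clusters were named from fixed markers. Counts were summed per class and library and divided by total UMIs. Ratios have exact conditional 95% intervals (scipy 1.17.1), need 50 UMIs over both libraries and were called at 1.5-fold, and a floor is 3 counts. The ratio script was tested on simulated data. Gene positions are from GENCODE vM21. All 10 members were named. Outside them, the rule took from each list the 3 genes with the highest and the 3 with the lowest endothelial old over young ratio, of which those past 1.5-fold are given, and the 10 genes per class with the highest lowest correlation with the members over libraries. The list genes named for lying above neurons or for passing 1.5-fold in other classes, the class levels of Dusp1, Hspa1a and Klf2, the Malat1 values and the clusters singled out were chosen after their values were seen. The members and lists were chosen with earlier results of these data known. edgeR 4.0.16 gave TMM factors for an alternative. Amacrine, mixed microglia and T cell, mixed erythroid and unnamed clusters were not analysed here.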

Additional observations from a re-analysis of the deposited data

Results flagged for a closer look

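Fosb differed in direction between cell classes, old over young: 0.509 in endothelial cells and 0.423 in pericytes, 1.60 in rods and 1.59 in cones. The difference between classes was not tested, and the rod and cone intervals include 1. Bipolar cells, with fewer than the 50 UMIs required, held 27 young and 6 old Fosb UMIs, or 24.0 and 6.34 CPM, lower in the old library. Cells outside the 7 compared classes also carried the genes. B cells, which were too few in the young library, held a summed level of 4511 CPM in the adult and 5632 CPM in the old library, between the neurons and the pericytes. Old pigment epithelium cells (54 cells) held 333 CPM, below each value of the 7 classes. Their Malat1 level, 952 CPM, was also below each value of those classes, the lowest being 13866 CPM in adult rods. Its part in the low summed level was not tested. With 1 library per age, no search for outlying libraries within a group could be made.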

How the results depend on the processing

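The mean log2 ratio of endothelial cells over rods was 3.58 to 3.89 in the 11 alternatives. All lay within 1 SD of its value, but that SD is the spread of libraries of differing age and a wide limit. The summed endothelial ratio of old over young left its counting interval in 4 of 11, at 0.990 with free RNA subtracted, 0.941 with cells with markers of another class left out, 0.957 with TMM factors and 0.989 with mean CPM per cell. The adult over young ratio left it in 6 of 11, at 0.964 with thinning to 2000 UMIs, 1.03 with free RNA subtracted, 0.972 with each cell's own markers as its class, 0.991 with TMM factors, 0.936 with mean CPM per cell and 0.973 with mixed droplets counted as endothelial (an alternative chosen after seeing the data), and was on both sides of 1. The gap between vascular or glial cells and neurons was 4.88 with doublets kept and 4.27 with clusters in place of classes, and could not be computed where smooth muscle or cones had under 30 cells. Of 61 member and class pairs, 11 passed 1.5-fold old over young, and with no minimum of UMIs 18 did. Of 1172 recomputed ratios of single genes and class sums, 981 stayed within the counting interval, 180 moved outside it and 11 past 1.5-fold turned direction. The turned values, old over young, were Fosb in rods at 0.678 (stricter cell filters), Fosb in cones at 0.990 (doublets kept), Jun in bipolar cells at 1.17 and 1.36, and Junb in bipolar cells at 1.12 and 1.46 (other-class cells left out, and own markers). Adult over young, they were Fosb in rods at 1.16 (other-class cells left out) and Jun in bipolar cells at 1.40, 2.44, 1.08 and 1.17 (other-class cells left out, own markers, mean CPM per cell, doublets kept). The cause was not tested. The free RNA share was set by rod markers in non-neurons and endothelial markers in neurons, and was held at a ceiling of 50% in adult Müller glia and young bipolar cells. No paired analysis was possible because each age has 1 library and no result comes from a test. Depth limits the neurons most: Zfp36 and Atf3 in cones rest on under 10 UMIs per library.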

Other observations

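B cells (77 adult and 57 old cells) were led by members of the Jun family. Their highest members were Jund, at 1459 and 2246 CPM in the adult and old library, and Junb, at 1187 and 1567 CPM. Jun was at 275 and 365 CPM, below each vascular and glial value of that gene, whereas Zfp36, at 332 and 337 CPM, lay between Müller glia and endothelial cells. Fos stood at 446 and 288 CPM. In old pigment epithelium cells the highest member was Egr1, at 126 CPM, followed by Jund at 72.7 CPM. These values come from single libraries and no comparison was tested.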
